A study of Glycine max with 12 samples.

Results

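Nitrate was compared with nitrogen-free control solution in soybean nodules, on 3 arrays of nitrate-treated nodules and 3 arrays of control nodules. A probeset entered the comparison if its spot was marked as well above background in every replicate of one condition or of both. Of the 42748 probesets of the array that are not controls, 35253 met this criterion, and a change could be estimated for 35252. The plants were Glycine max cv. Nourin No. 2, inoculated with Bradyrhizobium diazoefficiens USDA110 and grown in aerated solution without nitrogen. From 19 days after planting the treated plants received 5 mM nitrate for 24 h, while the control plants stayed on the nitrogen-free solution, and only the larger nodules of the upper root were taken. Each array carried RNA pooled from 3 plants, and the pools of a condition were described as separate biological replications. The series has 12 arrays in all, the other 6 being from the nodule-free lower roots of plants under the same conditions.

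Root nodules are organs in which rhizobia, held inside infected plant cells, reduce dinitrogen to ammonium with carbon supplied by the shoot. The plant assimilates that ammonium through glutamine synthetase and glutamate synthase, and soybean exports much of the fixed nitrogen as ureides made from purines, with asparagine as another transport form. Nitrate given to nodulated plants is known to slow nodule growth and fixation reversibly, and the comparison asks which transcripts in the nodule changed within the first day of supply.

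After each array was scaled to a mean signal of 2500, the control nodule arrays correlated at 0.996 to 0.997 (Pearson's r across probesets, which are not independent replicates), the nitrate-treated arrays at 0.991 to 0.996, and arrays of opposite conditions at 0.963 to 0.983. The median SD of a probeset on the log2 scale was 0.079 in the controls and 0.14 after nitrate. The 3 control arrays lay on 1 slide together with nitrate-treated array 3, while nitrate-treated arrays 1 and 2 lay on another, so that a comparison within a slide rests on nitrate-treated array 3 alone. Gene descriptions were at hand for probesets in the study's own lists of probesets changed over 2-fold in roots or nodules, which gave 2964 probesets a description. Of those, 1692 were listed for roots and 1272 for nodules only. The latter were chosen on the very arrays compared here, so that their high share of called members follows from the choice and is no separate evidence. Since only changed probesets are described, a nodule product that did not change has no description here. The study reported leghemoglobin probesets to be much brighter in nodules than in roots and not affected by nitrate. None of the descriptions names leghemoglobin or uricase, the defining products of a nodule, and 10 name a nodulin, of which all were well above background on every nodule array. Only 2 of these 10 were higher on all control nodule arrays than on all control root arrays, the brighter being nodulin 21 (AW203733.1_45) with mean signals of 35296 and 13887.

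Nitrate upregulated 1123 probesets by more than 2-fold at an adjusted p under 0.05 (limma, Benjamini-Hochberg over all probesets tested), which is 3.19% of the 35252. It downregulated 1918, or 5.44%. By more than 4-fold, 215 probesets (0.610%) rose and 192 (0.545%) fell, and by more than 16-fold 10 rose and 9 fell. These counts use fitted sizes. Among those past 16-fold, AW348413.1_627 and BE608447.1_1 had a dim group never well above background. Only a rise of at least 14.9-fold and a fall of at least 7.87-fold can be given for them. In 1117 of the upregulated probesets all treated arrays exceeded all controls, and in 1916 of the downregulated ones all treated arrays were below all controls. Over all tested probesets the shares so separated were 24.0% and 38.6%. The balance at 4-fold turned with the processing, with 266 up and 154 down under quantile normalization, 176 and 96 without nitrate-treated array 3, and 362 and 684 with the slide as a block. Upregulated probesets made up 36.9% of those called, a share that was 42.3% when arrays were scaled to their 75th percentile and 47.1% with quantile normalization, and 30.4% with the slide as a block. Over all tested probesets the median log2 change was -0.08.

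**Figure D1:**
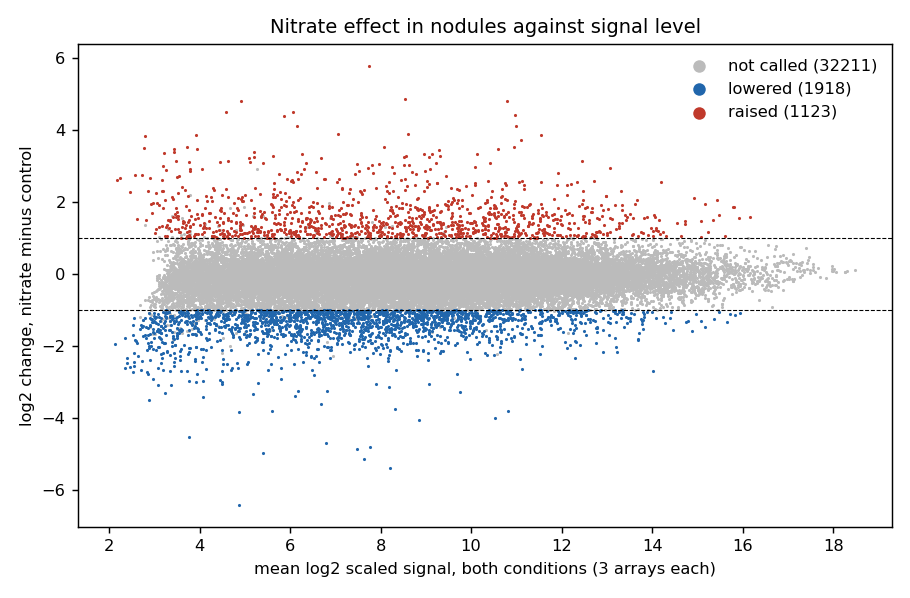
Log2 change by nitrate in nodules (nitrate minus control, y axis) against the mean log2 scaled signal of both conditions (x axis) for the tested probesets, with the 2-fold limits dashed. The 1918 downregulated probesets (blue) crowd towards low signals, with 796 of them in the dimmest of 4 equal bins and 212 in the brightest, and the 1123 upregulated ones (red) are spread more evenly, with 381 and 227.

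Calls were not spread evenly over signal levels. In the dimmest of 4 equal bins of mean signal 9.03% were downregulated and 4.32% upregulated, whereas in the brightest bin the shares were 2.41% and 2.58%. The median SD of the control arrays on the log2 scale was 0.13 in the dimmest and 0.058 in the brightest bin, a spread that includes differences between the pools of plants. For 57 of the upregulated probesets the control arrays, and for 128 of the downregulated ones the nitrate-treated arrays, were in no case well above background, and only a lower limit of their fold change can be given.

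The strongest rise was that of BU544367.1_386, an expressed sequence tag without a gene name. Its scaled signals were 47.04, 34.5 and 14.7 on the control arrays and 819.7, 1466 and 3262 on the nitrate-treated arrays, a change of 5.77 on the log2 scale (standard error 0.61, adjusted p = 0.003), or 54.7-fold. Every treated array lay far above every control, and control array 3 and nitrate-treated array 3 were the extremes. The call was lost under the t-test of the study's methods with adjusted p. An aspartyl protease, AW707145.1_264, an enzyme class that cleaves proteins and takes part in protein turnover, was well above background on 1 of the control arrays only and changed by 4.79 on the log2 scale (standard error 0.65, adjusted p = 0.0043). The tags GMFL01-24-K12-R_172 and GMFL01-18-B01-R_500, the latter from a library of tissue treated with salicylic acid, rose 27.7-fold and 21.1-fold to some of the brightest signals of this group. On the control arrays they read 705, 388 and 142 for the first and 854, 519.6 and 188 for the second, and after nitrate 6367, 9781 and 13221 and 6401, 10090.2 and 12187. In both tags control array 1 was the highest of its group and control array 3 the lowest, and the groups did not overlap. The other 6 of the 10 strongest rises measured 4.10 to 4.86 on the log2 scale, and none of these 6 is described as a gene of known function.

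The strongest fall was that of CX709979.1_481, a tag first sequenced from water-stressed tissue, with 512, 194 and 202 on the control arrays and 4.91, 2.01 and 3.32 after nitrate. None of the treated arrays was well above background, and the signal was at least 32.8-fold lower (adjusted p = 0.0022). Under the adjusted t-test of the methods this call was also lost. Next came GMFL01-40-M21-R_76, which is described by the same cDNA clone as BU550052.1_116. The control signals of these probesets nearly coincided, at 2149.6, 1551 and 2109 for the former and 2124, 1522 and 2048 for the latter. After nitrate they fell to 112, 51.9 and 16.3 and to 178, 113 and 72.4, which gives log2 changes of -5.39 (standard error 0.66, adjusted p = 0.0036, 2 of 3 treated arrays well above background) and -4.05 (standard error 0.33, adjusted p = 0.0024). Asparaginase CD409922.1_668, described further on, was the only one of the 10 strongest falls with a gene name. A probeset without any description, BE822299.1_99, went from 1399, 654 and 1647 to 71.2, 32.9 and 28.9, a fall by 4.81.

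Nitrate enters plant cells through transporters, among them high-affinity transporters of the plasma membrane, while channel-type proteins of the CLC family move chloride or nitrate across inner membranes. Of the 9 tested members of the list for nitrate and peptide transporters and anion channels, 5 rose, none fell and 4 did not pass. Their median log2 change was 1.08, and 8 of the 9 were described from the root lists. The high-affinity nitrate transporter GMFL01-19-H08-R_500 read 419, 146 and 129 on the control arrays and 1434, 2018 and 1186 after nitrate, a rise of 2.92 on the log2 scale (standard error 0.47, adjusted p = 0.006). Control array 1 was the high one of its group but stayed below all treated arrays. Among 4 probesets described as the CLC-7 chloride channel, AW760651.1_483 went from 501, 459 and 431 to 1965, 2605 and 3206 and rose by 2.46 on the log2 scale (standard error 0.18, adjusted p = 0.0022), and BG359405.1_414 rose by 2.94 (standard error 0.35, adjusted p = 0.0034). The remaining CLC-7 probesets did not pass, with 0.31 for GMFL01-47-K04-F_321 (adjusted p = 0.075) and an estimate near 0 for CX711515.1_684 (adjusted p = 0.998), and their groups overlapped. For the H+ oligopeptide symporter, a carrier family that includes nitrate transporters in plants, GMFL01-14-C18-R_644 went from 57.3, 33.4 and 44.01 to 309, 254 and 256, a change of 6.20-fold (adjusted p = 0.0022). The dimmer GMFL01-15-A23-F_605 rose by 1.08 (adjusted p = 0.0087), a call lost without control array 1. The brightest transporter of the list did not move detectably. The putative nitrate transporter GMFL01-10-M04-R_359 read 11344, 10549 and 10437 in the controls and 10312, 10057 and 11864 after nitrate (log2 change -0.01, adjusted p = 0.95).

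Nitrate reductase and nitrite reductase turn nitrate into ammonium, which glutamine synthetase (GS) and NADH glutamate synthase (GOGAT) carry into amino acids. Only 2 of the 15 tested members of this list rose by more than 2-fold and none fell, although 9 were higher at the adjusted p when size is disregarded, a state that held for 16.7% of all tested probesets. In 14 of the 15 the estimate was above 0, with a median of 0.36. Nitrate reductase INR1 (GMFL01-21-N18-R_440) was already bright without nitrate, with 19756, 21771 and 21846, and reached 27534, 24536 and 29888, 1.29-fold (adjusted p = 0.022). Nitrite reductase GMFL01-08-I05-R_317 read 2029.7, 2263 and 1981 and then 2576, 2595 and 2607, a difference of 0.31 (standard error 0.07, adjusted p = 0.017). In both of these the groups did not overlap, a state in which treated arrays exceeded all controls in 24.0% of all tested probesets. The cytosolic GS probeset GMFL01-16-C01-R_584 was the brightest of the list by far, with 225945, 235314 and 258216 in the controls and 298655, 262013 and 281797 after nitrate, and did not pass the test (0.23, adjusted p = 0.067). The glutamine synthetase precursor probesets ranged from -0.07 to 0.52. The members called were both NADH-GOGAT. The brighter of them, CX702963.1_699, rose from 8222, 7725 and 9028 to 15397, 18189 and 19144, 2.11-fold (adjusted p = 0.0028), and AW102262.1_240, a dim tag, rose 2.22-fold (adjusted p = 0.0024). Another NADH-GOGAT probeset, CA783200.1_620, changed 1.98-fold (adjusted p = 0.0089) and fell short of the 2-fold limit, which it passed with the slide as a block (1.16 on the log2 scale, adjusted p = 0.016).

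Asparagine synthetase forms asparagine from aspartate and glutamine, and asparaginase hydrolyses asparagine again. All 8 probesets described as soybean asparagine synthetase in the root lists were upregulated in nodules, with log2 changes of 1.58 to 2.18, and every treated array lay above every control array. Asparagine synthetase 1 (AS1), GMFL01-13-P05-R_651, rose from 26806, 28762 and 36055 to 99796, 113545 and 118174, by 1.86 on the log2 scale (standard error 0.13, adjusted p = 0.0022). A dimmer AS1 probeset, GMFL01-51-F01-F_362, went from 1784, 2018 and 2559 to 7111, 10975 and 10973, by 2.18 (adjusted p = 0.0028). The AS2 probeset GMFL01-14-F20-R_547 read 34548, 39354 and 55304 in the controls and 122906, 106796 and 153862 after nitrate, by 1.58 (standard error 0.21, adjusted p = 0.0041). Near-identical members of the family can share signal, so the rise may not belong to each gene separately. A further probeset, described as glutamine-hydrolyzing asparagine synthase, moved the other way. CO979767.1_615, which came from the nodule lists, fell from 1728, 1563 and 1334 to 520.3, 571 and 427 (-1.61, standard error 0.14, adjusted p = 0.0025).

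The 3 tested asparaginase probesets all fell. L-asparaginase GMFL01-08-F10-R_584 had control signals of 46254, 37844 and 43152 and read 8459, 8667 and 3795 after nitrate, a change of -2.69 on the log2 scale (standard error 0.32, adjusted p = 0.0035). GM-ASNASE1 CD409922.1_668 fell from 6907, 6001 and 5025 to 606, 475 and 179, a log2 change of -3.99 (standard error 0.45, adjusted p = 0.0031), which is 15.9-fold. A second GM-ASNASE1 probeset, CF805961.1_241, changed by -3.82 (adjusted p = 0.0049) and was well above background on 2 of the treated arrays. In all 3 the lowest signal was that of nitrate-treated array 3. The summed signal of the tested asparagine synthetase probesets lay between 117286 and 164617 on the control arrays and between 424341 and 533712 after nitrate, while that of the asparaginase probesets went from a range of 43954 to 53287 down to 3977 to 9155.

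**Figure D2:**
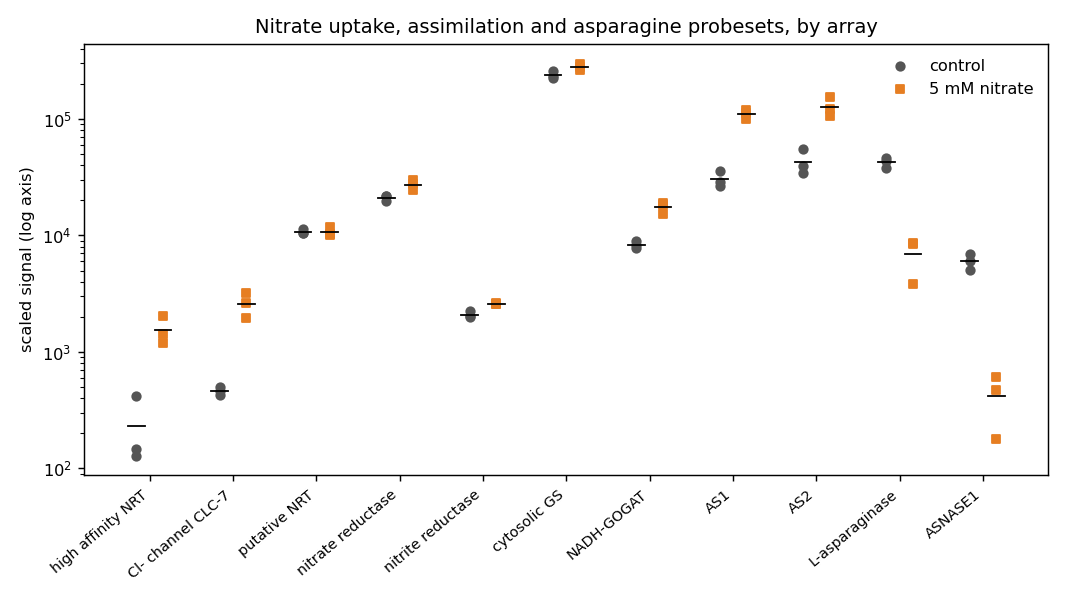
Scaled signal (log axis) of 11 probesets for nitrate uptake, nitrate and ammonium assimilation, and asparagine synthesis and breakdown on the 3 control (circles) and 3 nitrate-treated (squares) nodule arrays, with the mean of each group as a line. The nitrate reductase, nitrite reductase and GS groups lie close together, the AS1 and AS2 groups are separated upwards by 3.64-fold and 2.99-fold, and the asparaginase groups are separated downwards.

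Transporters of ammonium and amino acids were mixed, with 4 of 12 tested probesets up and 3 down (median 0.70). Of these calls, 3 rises and 2 falls came from the nodule lists, which were chosen on these arrays. The ammonium transporter Amt1;2, GMFL01-22-A23-R_536, named after the Lotus japonicus gene, rose from 1799, 1944 and 2763 to 4642, 4724 and 4835 (adjusted p = 0.0045). An ammonia permease, BI498123.1_467, fell from 72.2, 71.3 and 80.3 to 24.6, 38.8 and 27.4 (adjusted p = 0.004). Among enzymes that break amino acids down, 8 of 10 tested probesets rose and 1 fell (median 1.41). Of these 10, 8 were described from the nodule lists, chosen on these arrays, and hold 6 of the rises and the fall. The 2 from the root lists rose. The shares over all tested probesets were 3.19% up and 5.44% down. Proline dehydrogenase BE660911.1_670, which starts the oxidation of proline in mitochondria, went from 46.9, 46.9 and 34.1 to 185, 228 and 261, 5.28-fold (standard error of the log2 change 0.18, adjusted p = 0.0022). Tyrosine aminotransferase AW760137.1_515 rose 8.16-fold (adjusted p = 0.0031), and alanine-glyoxylate aminotransferase AW201054.1_572 rose 3.05-fold (adjusted p = 0.0056). A second tyrosine aminotransferase probeset, BE823885.1_471, was the one that fell, by 1.37, and is named here after its value was seen.

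Transcripts for photosynthesis were the list with the most upregulated members among the 28 lists. Of 64 tested probesets for the light reactions, which encode chlorophyll-binding antenna proteins and subunits of the photosystems, 63 rose and the remaining one had a log2 change of 0.99. The median was 1.30 and every treated array lay above every control array in all 64. All of these were taken from the nodule lists, which were chosen on these arrays, so that their count and rank are no separate evidence. The number called was 47 without control array 1 and 48 without nitrate-treated array 3. The chlorophyll a/b-binding protein cab3 probeset AW596226.1_66 read 25.1, 48.9 and 36.9 in the controls and 139.6, 141 and 186 after nitrate, a rise of 2.11 on the log2 scale (standard error 0.25, adjusted p = 0.0035). Photosystem I subunit PSI-N (GMFL01-10-H21-R_543) went from 788, 1002 and 743 to 2992, 3128 and 4658, 4.20-fold (adjusted p = 0.0027), and the light-harvesting probeset GMFL01-21-K03-R_333 rose 3.13-fold (adjusted p = 0.004). Summed over the 64 probesets, the signal was 57482 to 81925 on the control arrays and 160886 to 216179 on the treated arrays.

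Carbon fixation also rose, with 25 of 26 tested probesets up and a median of 1.82. Here 8 probesets for the small subunit of Rubisco, the carbon-fixing enzyme of chloroplasts, came from the root lists, and all 8 rose in nodules by 1.80 to 2.07. They were chosen without the nodule arrays, but they detect copies of 1 gene family. BF067748.1_326, one of them, had 665, 859 and 753 and then 2556, 2538 and 3461 (3.74-fold, adjusted p = 0.0024). A brighter small-subunit probeset from the nodule lists, GMFL01-25-F02-R_286, went from 1797, 2335 and 2051 to 6629, 6568 and 8758 (3.54-fold, adjusted p = 0.0024). These photosynthetic lists serve here as the markers of green tissue. Whether green cells or chloroplasts of the nodule cortex contributed to the RNA was not tested, and more such cells and more RNA per cell cannot be told apart in pooled tissue.

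Chlorophyll and haem metabolism rose in 6 of 9 tested probesets and fell in none. All 6 came from the nodule lists, and the rises were 4 without control array 1 or nitrate-treated array 3. A magnesium chelatase subunit, the first enzyme of the chlorophyll branch, rose 2.15-fold (GMFL01-33-C23-F_189, adjusted p = 0.0053), a call lost without control array 1, and heme oxygenase 3, which opens the haem ring, rose 2.50-fold (BM107929.1_325, adjusted p = 0.0029), a call lost when all 12 arrays shared one fit. Clock and light-signalling genes rose in 12 of 15, and 11 of the 12 came from the nodule lists. The rises were 8 without control array 3 and 9 without nitrate-treated array 3. The clock transcription factor LHY (CD409634.1_554) read 405, 401 and 269 in the controls and 1032, 1141 and 1391 after nitrate, a change of 1.74 on the log2 scale (standard error 0.19, adjusted p = 0.0031), and a CONSTANS-like gene (GMFL01-08-E17-R_575) rose 2.75-fold (adjusted p = 0.0033). The single member that fell was described as phytochrome-interacting factor 4, a growth regulator removed in the light. That probeset (CX702063.1_846) went from 135, 121 and 119.9 to 41.1, 66.5 and 31.6 (adjusted p = 0.0074). The clock time of harvest is not given in the sources used here.

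Starch and sugar genes went both ways. Of 19 tested probesets, 7 rose and 4 fell, all of these described from the nodule lists, while none of the 8 from the root lists was called. All 4 beta-amylase probesets, for enzymes that release maltose from starch, rose. The bmy2 probeset GMFL01-21-F05-R_544 went from 2185, 1731 and 1101 to 6935, 11697 and 8796, a rise of 2.47 on the log2 scale (standard error 0.30, adjusted p = 0.0035). Trehalose-6-phosphate synthase BE821385.1_549, whose product is a signal of sugar status, rose 3.13-fold (adjusted p = 0.0029). The falls were those of a granule-bound starch synthase and of 3 probesets described as invertase, which splits sucrose. Of these, GMFL01-37-O24-R_231 fell from 3912, 2349.6 and 3167 to 1112, 1171 and 469 (-1.86, standard error 0.39, adjusted p = 0.012). A beta-fructosidase named after tomato lin5, BG236960.1_348, changed by -1.66 but did not pass (adjusted p = 0.077), with 17.9, 12.2 and 2.88 after nitrate. With the slide as a block it was called (-3.23, adjusted p = 0.00072). Among 28 probesets for glycolysis, the pentose phosphate pathway and organic acids, 3 rose, 6 fell and the median was -0.13. The rises were those of 1 probeset each for cytosolic fructose-1,6-bisphosphatase, a nonphosphorylating glyceraldehyde-3-phosphate dehydrogenase and glucose-6-phosphate dehydrogenase. All 3 came from the nodule lists, which were chosen on these arrays, as did 4 of the falls. None of the 21 tested probesets from the root lists rose. Those root lists also hold probesets for glucose-6-phosphate dehydrogenase. Pyruvate kinase BU547018.1_625, the last step of glycolysis, fell from 1843, 1742 and 1898 to 727, 547 and 715 (adjusted p = 0.0024), a call lost when all 12 arrays shared one fit.

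**Figure D3:**
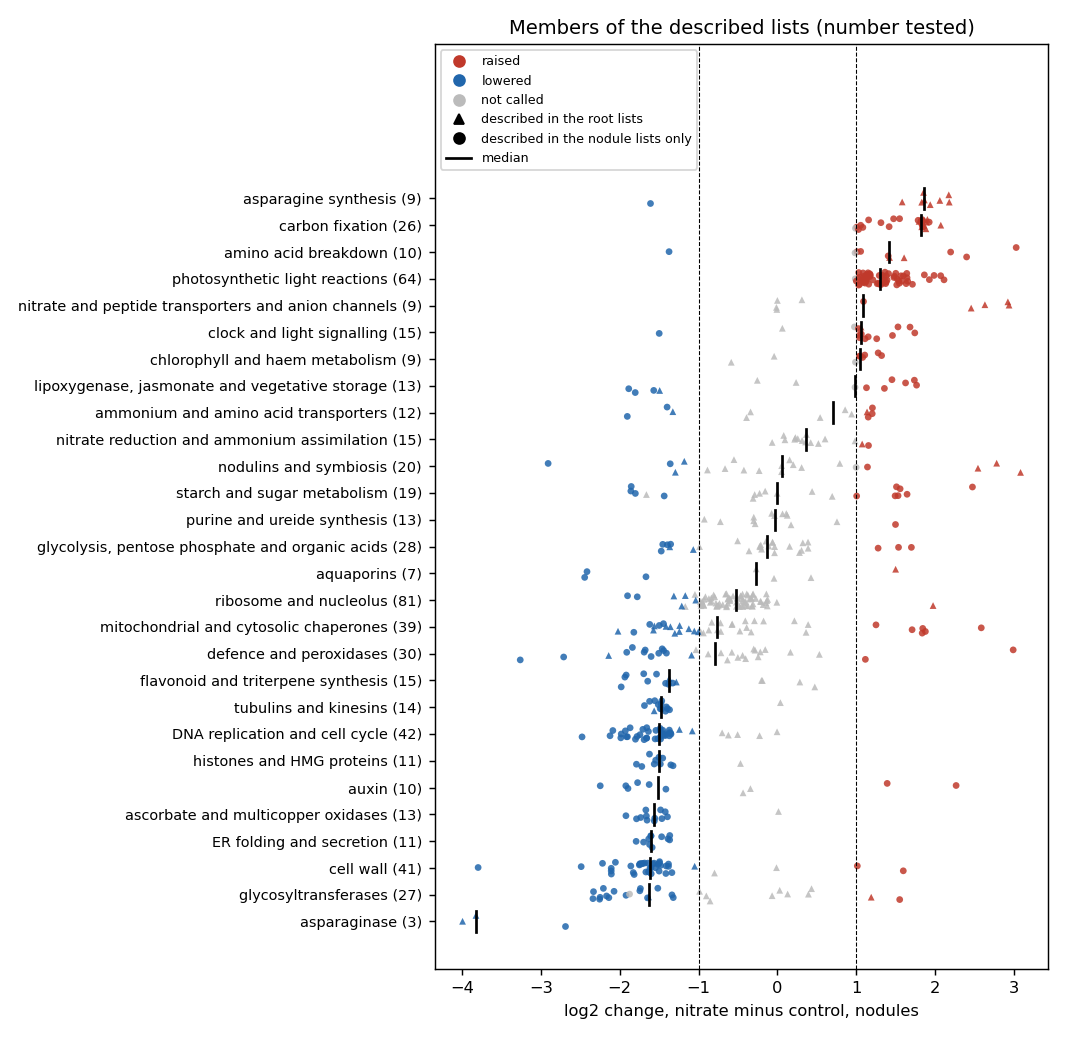
Log2 change by nitrate in nodules (x axis) of each tested member of the 28 described lists (y axis, number tested in brackets), coloured by call, with list medians as bars and the 2-fold limits dashed. Triangles are probesets described from the root lists, circles those from the nodule lists only, which were chosen on these arrays and so avoid the middle. Photosynthesis, carbon fixation and asparagine synthesis lie to the right, and DNA replication, cell wall, ER folding and asparaginase lie to the left.

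Genes of the dividing cell fell together. Of 42 tested probesets for DNA replication and the cell cycle, 37 fell, none rose, and all 42 estimates were below 0 (median -1.50). Among the 7 described from the root lists, 2 were called and the median was -0.62, while the other 35 were chosen on these arrays. MCM5, a subunit of the replicative helicase, read 44.1, 76.4 and 47.5 in the controls and 11.8, 17.5 and 9.44 after nitrate (BE210653.1_406, -2.12, adjusted p = 0.0043, 2 of 3 treated arrays well above background). Mitotic cyclins drive entry into division, and the a1-type probeset CD391660.1_292 fell from 96.5, 128 and 69.5 to 28.96, 34.5 and 13.8 (adjusted p = 0.0099). The a2-type probeset BE823273.1_524 was not well above background on any treated array and was at least 2.53-fold lower (adjusted p = 0.0023). Histones and HMG proteins fell in 10 of 11 probesets. These 10 came from the nodule lists, and the 1 from the root lists was not called (-0.48). Histone H4 CD412352.1_415, with 2931, 3410.4 and 1973 in the controls and 803, 1308 and 525 after nitrate, changed by -1.72 on the log2 scale (standard error 0.36, adjusted p = 0.012). Tubulins and kinesins, which build and use the spindle and cortical microtubules, fell in 13 of 14, for example a kinesin-like protein (CX709398.1_722) from 1543, 1792 and 1514 to 553, 647 and 401 and a beta-tubulin (GMFL01-07-M03-R_68) from 2891, 2842 and 2568 to 1123, 1194 and 619 (adjusted p = 0.0031 and 0.0061). Of the 13, 12 came from the nodule lists, and of the 2 members from the root lists 1 fell and 1 was not called.

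Enzymes that build and loosen the cell wall fell in 37 of 41 tested probesets and rose in 2, an expansin-like and a beta-galactosidase probeset (median -1.62). The falls were 30 without control array 1 and 31 without control array 2 or 3. All but 3 of the tested members came from the nodule lists. A xyloglucan:xyloglucosyl transferase, which cuts and rejoins wall xyloglucan, fell the most, from 169, 174 and 206 to 29.2, 20.6 and 3.75 (AW459363.1_318, -3.80, standard error 0.74, adjusted p = 0.0099). Its treated arrays differed widely, and 2 of 3 were well above background. UDP-glucose dehydrogenase GMFL01-01-O06-F_374, which supplies sugar nucleotides for pectin and hemicellulose, fell 4.31-fold (adjusted p = 0.0087), and a cellulase, BE609673.1_384, fell 5.61-fold (adjusted p = 0.0029, 2 of 3 treated arrays well above background). Folding and export of proteins in the endoplasmic reticulum (ER) fell in all 11 tested probesets, by 1.37 to 1.79. The study's list lowered in nodules was used in part, so members with smaller falls may lack a description. All 11 were described from the nodule lists, which were chosen on these arrays, so that this count is no separate evidence. The calcium-binding chaperone calnexin (GMFL01-40-N08-R_292) read 25214, 24909 and 20981 in the controls and 7960.2, 10300.2 and 5390.0 after nitrate (adjusted p = 0.0047). A vesicle cargo protein of the emp24 family, AW349757.1_666, went from 3095, 3068 and 2367 to 813, 1119 and 594 (adjusted p = 0.0041). Ascorbate and multicopper oxidases, secreted copper enzymes of the wall space, fell in 12 of 13, among them GMFL01-09-N20-R_30 by 1.92 (adjusted p = 0.0088). These 12 also came from the nodule lists, and the 1 from the root lists was not called (0.01).

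Other chaperones went both ways. Of 39 tested probesets 6 rose, all 6 described as DnaJ-type co-chaperones, and 15 fell, among them mitochondrial chaperonins and 3 further DnaJ probesets. All 6 rises came from the 10 members of the nodule lists, which were chosen on these arrays. Of the 29 members from the root lists none rose and 11 fell. A DnaJ probeset, GMFL01-13-H23-F_774, went from 3265, 3146 and 2015 to 13099, 16719.7 and 20438, 2.59 on the log2 scale (adjusted p = 0.0026), and the mitochondrial Cpn60 probeset CF807811.1_573 fell from 635, 536 and 554 to 191, 215 and 68.6 (adjusted p = 0.012). The count of 15 was 6 without control array 1, 9 without control array 2 and 7 without nitrate-treated array 3.

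Ribosomal and nucleolar genes, needed to make ribosomes, shifted down by less than 2-fold. Of 81 tested probesets only 6 fell by more than 2-fold and 1 rose, a 40S ribosomal protein S14 probeset not well above background in the controls, but 58 were lower at the adjusted p with size disregarded, against 28.9% of all tested probesets, and the median was -0.52. In 73 of the 81 every treated array lay below every control array. Nearly all of these probesets (79) were described from the root lists and so were chosen without the nodule arrays. The steepest call was 40S ribosomal protein S4 (CO982857.1_579), from 151, 102 and 165 to 42.7, 41.2 and 27.6 (adjusted p = 0.0038). The number over 2-fold was unstable. It was 2 without control array 1 or nitrate-treated array 3, 10 without control array 2, 12 and 17 without nitrate-treated array 1 or 2, and 29 once the slide was taken as a block.

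Secondary metabolism and defence also leaned down, mostly through probesets from the nodule lists, which were chosen on these arrays. Glycosyltransferases fell in 16 of 27 tested probesets and rose in 2. The glucosyltransferase AdGt-8 (CX704751.1_854), named after Vigna angularis, fell from 13059, 10495 and 10330.1 to 3790.2, 3435 and 851 (adjusted p = 0.019), a call lost when any 1 of the control arrays was left out. Flavonoid and triterpene enzymes fell in 11 of 15. Chalcone isomerase 2 (AW733840.1_557), an early enzyme of the flavonoid path, went from 374, 419 and 403 to 158, 166 and 126 (adjusted p = 0.0024), and beta-amyrin synthase (GMFL01-26-E16-R_471) changed by -1.98 (adjusted p = 0.015), a call lost without control array 1. Defence proteins and peroxidases fell in 13 of 30 and rose in 2. Peroxidase 2 (GMFL01-22-H09-F_556) read 283, 170.5 and 228 in the controls and 32.9, 33.4 and 11.3 after nitrate (-3.26, standard error 0.45, adjusted p = 0.0044, 2 of 3 treated arrays well above background). A chitinase, CD390619.1_41, an enzyme that degrades fungal walls, was not well above background after nitrate and was at least 2.20-fold lower (adjusted p = 0.0022). The resistance protein KR3 (BU578629.1_535) was well above background only after nitrate and was at least 3.36-fold higher (adjusted p = 0.0045).

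Lipoxygenase and jasmonate genes were mixed, with 6 of 13 up and 4 down. All 6 rises and 3 of the falls came from the nodule lists, which were chosen on these arrays. A lipoxygenase (CF809316.1_325), which oxidizes polyunsaturated fatty acids, rose from 1507, 1598 and 1506 to 4293, 6111 and 5431 (adjusted p = 0.0022). Allene oxide cyclase (CX547918.1_662), a step towards jasmonate, and a vegetative storage protein (GMFL01-41-F14-R_447) fell 3.49-fold and 3.70-fold (adjusted p = 0.011 and 0.013), both calls being lost when all 12 arrays shared one fit. Of 10 auxin-related probesets 2 rose and 6 fell. All of these calls came from the nodule lists, and neither of the 2 probesets from the root lists was called. The shares over all tested probesets were 3.19% up and 5.44% down. The transcriptional repressor Aux22 (BE555242.1_78) rose from 24.7, 28.05 and 22.95 to 110.3, 106 and 152 (adjusted p = 0.0022), whereas a putative PIN-type efflux carrier (CO985424.1_719) and an AUX1-like uptake permease (BM178437.1_337) fell by 2.25 and 1.90 on the log2 scale (adjusted p = 0.003 and 0.0027). Among 7 aquaporins, which conduct water through membranes, 3 fell and 1 rose. The 3 falls came from the nodule lists and the rise from the root lists. Only 1 fall was left without control array 2 or without control array 3. The aquaporin BM885167.1_466 went from 593, 715 and 687 to 212, 185 and 48.9 (adjusted p = 0.015), a call lost without control array 2 or 3, and CD391559.1_401 rose 2.83-fold (adjusted p = 0.005).

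Genes named for nodules and symbiosis went both ways. Of 20 tested probesets 4 rose, 4 fell, and the median was 0.05, while without nitrate-treated array 3 the falls were 2. Early nodulin 40 (BQ741901.1_501), a short-peptide or non-coding transcript linked to nodule initiation, rose the most, from 507, 446 and 461 to 3006, 3963 and 5336 (standard error of the log2 change 0.20, adjusted p = 0.0021), 8.48-fold. A nodulin 21-like probeset (GMFL01-02-G16-F_362) and a pea nodulin-like probeset (BI892659.1_289) rose 6.87-fold and 5.83-fold (adjusted p = 0.0031 and 0.0043). The probeset for root-nodule protein Dg93 (GMFL01-43-N02-F_57), named after Datisca glomerata, was well above background only in the controls and was at least 2.60-fold lower (adjusted p = 0.0038). For purine and ureide synthesis, the route of nitrogen export from soybean nodules, 12 of the 13 probesets were described from the root lists. Of 13 tested probesets none fell by more than 2-fold, and 1 rose, a hydroxyisourate hydrolase probeset not well above background in any control (median -0.04). The shares over all tested probesets were 3.19% up and 5.44% down, so few calls would be found in any list of this size. Xanthine dehydrogenase (BE823821.1_552), which turns purines towards urate, was higher with 31761, 35533 and 36246 against 19199.6, 20459 and 21643 in the controls, 1.69-fold (adjusted p = 0.003). GMP synthase (BF066473.1_82) read 681, 597 and 658 and then 343, 417 and 272, a difference of -0.93 (adjusted p = 0.0071). In both the groups did not overlap, and neither difference reached the 2-fold limit. With the slide as a block 2 probesets of the list fell, GMP synthase being one of them (-1.24, adjusted p = 0.0021), and without nitrate-treated array 2 the falls were 1.

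**Figure D4:**
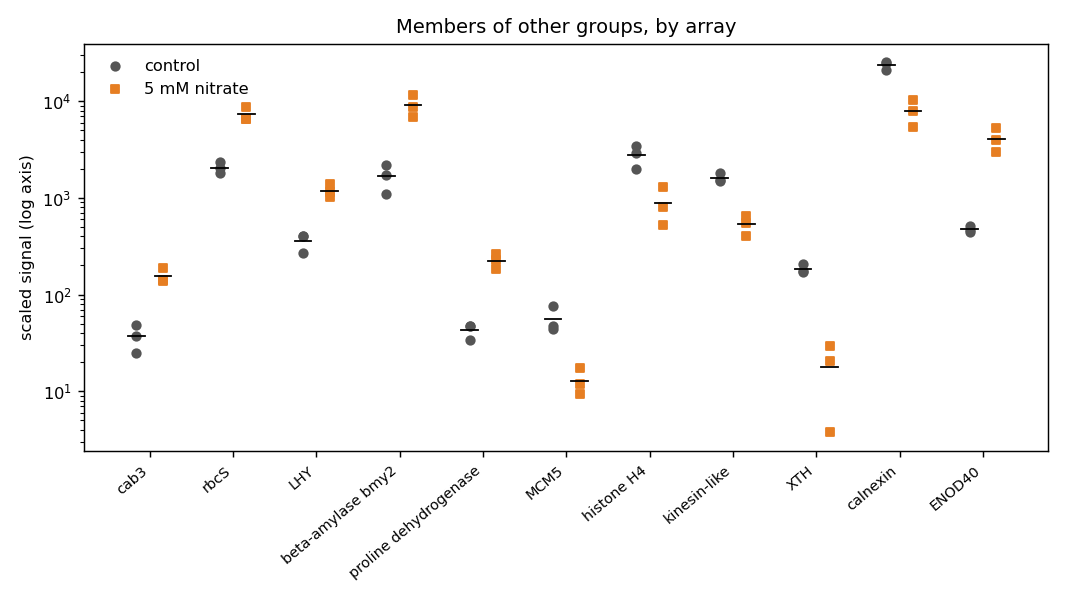
Scaled signal (log axis) of 11 probesets from the other groups on the 3 control (circles) and 3 nitrate-treated (squares) nodule arrays, with group means as lines. The groups do not overlap for any of them; cab3, rbcS, LHY, beta-amylase, proline dehydrogenase and ENOD40 lie higher after nitrate, and MCM5, histone H4, the kinesin-like protein, the xyloglucan enzyme (XTH) and calnexin lie lower.

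The treated arrays did not change by the same amount. Relative to the control mean, upregulated probesets had a median log2 change of 1.19, 1.40 and 1.66 on nitrate-treated arrays 1, 2 and 3, and downregulated ones of -1.18, -1.09 and -1.73. Array 3 was the farthest from the controls in most lists, the cell wall list reaching a median of -2.30 on it against -1.32 and -1.34 on the others. The exceptions were nitrate transporters, starch and sugar, lipoxygenase and jasmonate, and nodulins. Array 3 is the treated array that shared the slide of the controls. Against those controls alone it showed the same direction as the whole comparison in all 1123 upregulated and all 1918 downregulated probesets, 1079 and 1895 of them past 2-fold. Since array 3 also entered those calls, its direction is no separate evidence, and whether the smaller changes on arrays 1 and 2 belong to their plants or to their slide cannot be told apart. Leaving out single arrays gave 980 to 1310 upregulated and 1305 to 2336 downregulated probesets, and 807 and 1092 of the calls were made whichever array was left out.

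**Figure D5:**
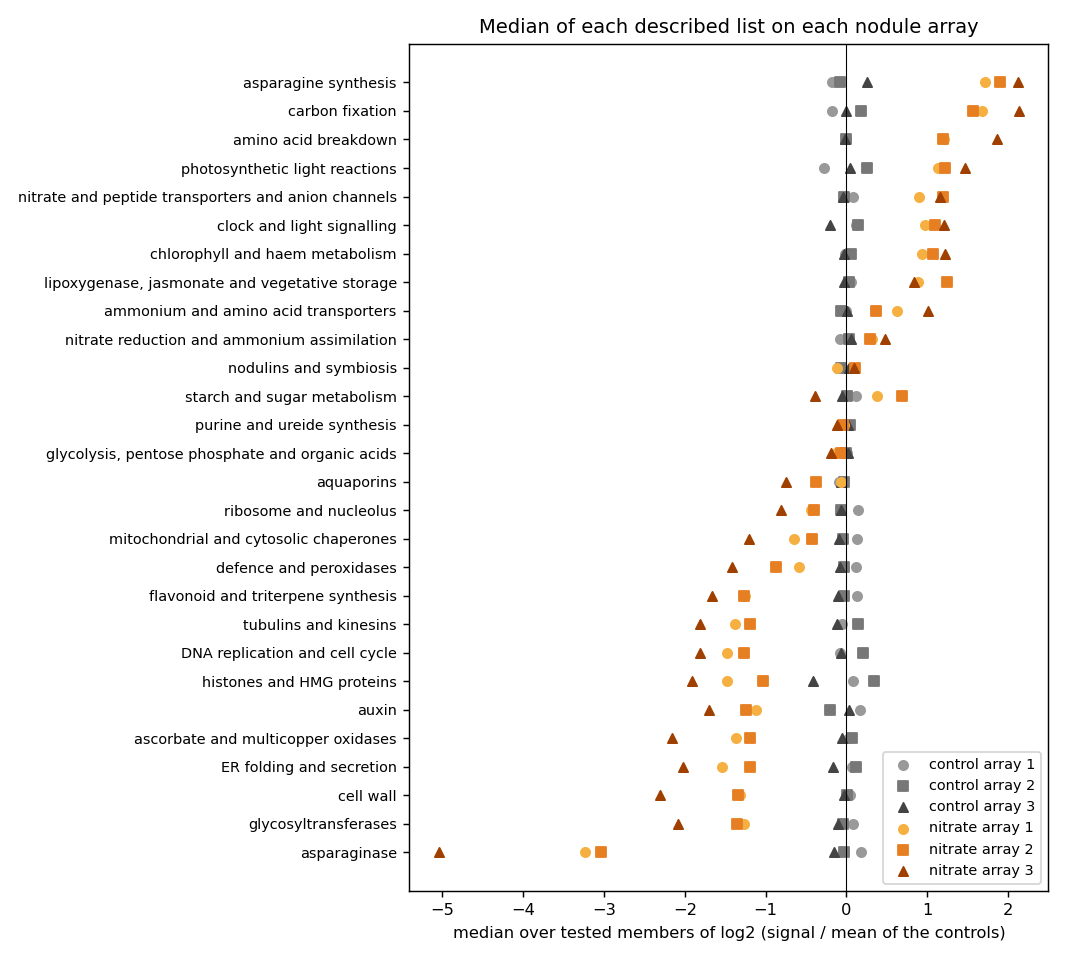
Median over the tested members of each list of the log2 ratio of signal to the mean of the controls (x axis), for each of the 3 control (grey) and 3 nitrate-treated (orange to brown) nodule arrays. The control arrays have medians between -0.41 and 0.34, and nitrate-treated array 3 (brown triangles) is the most extreme in most lists, with -5.05 for asparaginase.

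Whether the changes in nodules differed from those in roots was tested by the interaction term of a fit to all 12 arrays, nodules minus roots. It passed an adjusted p under 0.05 in 19.8% of 36425 probesets. It passed in 604 of the 1123 probesets upregulated in nodules and in 1180 of the 1918 downregulated ones. Those probesets were called on the same nodule arrays that enter the term, which favours a pass, so that these counts are no separate evidence. All 15 probesets for nitrate reduction and ammonium assimilation changed less in nodules than in roots by this test, nitrite reductase GMFL01-08-I05-R_317 by -8.77 on the log2 scale (adjusted p = 1.4e-09). For the light reactions 60 of 64 probesets changed more upwards in nodules, with a root median of -0.43, and for DNA replication and the cell cycle 38 of 42 changed more downwards, with a root median of 0.86. In the ribosomal list the nodule change was the lower one in 77 of 81, and 16 of its members were upregulated in roots, where 0.851% of all probesets tested were upregulated and 1.70% downregulated. Of the 26 carbon fixation probesets only 3 differed, and the root median was 0.87. The members of the lists were chosen for a change in one of the organs, which favours a difference between them in these counts, and the slides hold organs and conditions unequally.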

How the data were processed

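Glycine max nodule RNA was hybridised to 1-colour Agilent arrays, and the authors extracted background-corrected intensity values with Feature Extraction (version 10.5.1.1 per the file headers, 9.5.1 per the labels). The deposited processed intensity of each probe that is not a control was scaled to a mean of 2500 per array, as in the study's methods, and converted to log2. The deposited series table holds the same intensity values as the scanner files, equal in 529980 of 529980 cases. Probes well above background in every replicate of one condition or of both were fitted with limma 3.58.1 (lmFit, eBayes; R 4.3.3), and p-values were adjusted by the Benjamini-Hochberg method over all probes tested. Scripts were tested on simulated data. A probe was called at an adjusted p under 0.05 and a change above 2-fold. A lower limit of a fold ("at least") sets the dim group at the higher of its own signal and the lowest signal well above background on each array.

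The 28 lists are word searches in the descriptions of the study's lists, of which the list lowered in nodules was used in part (742 probesets). The smallest falls from it were -1.35 for DNA replication and -1.37 for ER folding. Rises from the nodule lists reached down to 0.99 for the light reactions. Probesets with smaller falls may therefore lack a description, which can make medians and ranges of falling lists steeper. Fold changes and p-values in the study's lists were not used. Named probesets are the 10 strongest rises and falls with separated groups, up to 4 of the strongest in each list, and all members of the nitrate transport, nitrate reduction, asparagine synthesis and asparaginase lists. Others were named after their values were seen. The members and lists were chosen with earlier results of these data known. An exact permutation test of 3 arrays against 3 cannot go below p = 0.10. The number of arrays limits the precision.

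Alternatives were other scalings, normexp background correction, other filters, a fit with all 12 arrays, the slide as a block, the methods' t-test, and leaving out each array.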

Additional observations from a re-analysis of the deposited data

Results flagged for a closer look

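The probesets below are given because their response to nitrate differed between nodules and roots by the interaction term (limma, adjusted p under 0.05). Each value is the log2 change in nodules minus that in roots, so that a negative value means a lower change in nodules. The term passed in 19.8% of all probesets tested, and many of the probesets were listed for a change in one organ, which favours such a difference.

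In nitrate reduction and ammonium assimilation all values were below 0. Nitrite reductase differed by -8.77, nitrate reductase INR1 by -5.79 and nitrate reductase BCNR-A by -6.13, with root log2 changes of 9.08, 6.16 and 6.55. Cytosolic glutamine synthetase differed by -1.03 and a glutamine synthetase precursor probeset by -3.63. The NADH glutamate synthase probesets differed by -0.96, -3.11 and -2.98. For nitrate transport the values were -2.96 for an H+ oligopeptide symporter, -1.08, -1.51 and -1.81 for CLC-7 channels, 1.17 for a nitrate and chloride transporter and 1.46 for the putative nitrate transporter. The last-named pair had log2 changes of -1.18 and -1.46 in roots and of -0.01 each in nodules. Asparagine synthetase rose in both organs and differed by -0.83 and -1.12 for AS1 and -1.50 for AS2. Asparagine synthase CO979767.1_615 differed by -1.54, GM-ASNASE1 by -2.78 and L-asparaginase by -2.12.

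Values above 0, a higher change in nodules, were found for cab3 (2.54), PSI-N (1.15), a light-harvesting protein (1.83) and a CONSTANS-like gene (2.39). They were also found for trehalose-6-phosphate synthase (1.77), tyrosine aminotransferase (2.01), proline dehydrogenase (2.66) and alanine-glyoxylate aminotransferase (3.54), and for DnaJ probesets (1.94 and 2.31), Aux22 (2.88) and the tag BU544367.1_386 (4.25).

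Values below 0 covered cell division, with -2.89 for cyclin a1, -3.15 for MCM5, -2.01 for histone H4, -2.69 for the kinesin-like protein and -1.62 for beta-tubulin. In the wall and the ER they were -3.49 for the xyloglucan enzyme, -2.12 for UDP-glucose dehydrogenase, -2.37 for a multicopper oxidase, -2.11 for calnexin and -2.30 for the emp24 protein. In metabolism they were -2.89 for beta-fructosidase, -2.85 for pyruvate kinase, -1.97 for GMP synthase, -2.88 for beta-amyrin synthase and -2.07 for chalcone isomerase 2. Further values were -2.01 for phytochrome-interacting factor 4, -3.67 for Cpn60 and -3.97 for peroxidase 2. The auxin efflux carrier, the AUX1-like permease and the aquaporin BM885167.1_466 differed by -2.27, -2.54 and -3.29. Of the probesets without a gene name, the pair that shares a cDNA clone differed by -4.33 and -3.48, and BE822299.1_99 by -4.96. For CX709979.1_481, cyclin a2 and chitinase the fitted values were -9.18, -3.10 and -2.44. None of these was well above background on any nitrate-treated nodule array, so that the sizes of their differences are not measured and only the direction can be read.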

How the results depend on the processing

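The named probesets that were called kept their direction under every setting in which they were tested, but the numbers of calls moved. Normexp background correction left 958 downregulated by more than 2-fold, and by more than 4-fold 103 up and 43 down. The named chitinase, cyclin a2, MCM5, KR3, Dg93, ammonia permease, phytochrome-interacting factor 4 and dim glutamate synthase probesets were among those no longer called. With the slide as a block 3563 fell by more than 2-fold, and by more than 4-fold 362 rose and 684 fell. Within the slide that holds both conditions, which rests on nitrate-treated array 3, the numbers were 3560, 363 and 685. With the slide as a random block 411 fell by more than 4-fold. When only probesets well above background on all 6 arrays were kept, 95 fell by more than 4-fold, and the adjusted form of the methods' t-test left 121 up by more than 4-fold. That t-test no longer called, among others, BU544367.1_386, CX709979.1_481, the CLC-7 probeset BG359405.1_414 and alanine-glyoxylate aminotransferase AW201054.1_572. Leaving out single arrays gave 1305 to 2336 falls by more than 2-fold, and by more than 4-fold 176 to 285 rises and 96 to 284 falls, the 96 being without nitrate-treated array 3. Over the members of all lists, leaving out single arrays turned the 170 rises into 145 to 177 and the 217 falls into 180 to 236, with 179 rises under quantile normalization and 258 falls with the slide as a block. Rises in the cell wall (without control array 1 or nitrate-treated array 3), glycosyltransferase (without nitrate-treated array 3) and defence lists (without control array 2 or 3) went from 2 to 1. Apart from the filters, which change the probesets tested, the cause was not tested.

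Deviations from the group means correlated weakly between same-numbered control and nitrate-treated nodule arrays (r = 0.14, 0.03 and 0.11). Differently numbered arrays gave r of -0.17 to 0.087. These weak values do not settle whether the replicate numbers pair the arrays. With the replicate number as a block, 1113 probesets rose and 1915 fell by more than 2-fold, and 213 and 192 by more than 4-fold. Dim probesets are the least certain, since their signals lie near the lowest value marked well above background, and a fold below it is only a limit.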
